A study of Bos taurus with 12 samples.

Results

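The well-measured cumulus transcripts were the 4708 of 38030 bovine transcripts (12.4%) that had at least 50 estimated counts in each of 6 cumulus libraries, after the 10 transcripts with the most counts in L replicate 3 had been left out. They made up 19.9% of the 23689 cumulus transcripts tested. The libraries came from multiparous lactating Holstein cows, 1 cumulus oocyte complex and 1 library per cow, collected by ovum pickup from a single preovulatory follicle. In the L group (n = 3) body condition score (BCS), read on a 5-point scale, fell between calving and 27 to 33 days in milk (DIM), by at least 0.5 points in all cows of the study's L group but 1, which lost 0.3. In the M/G group (n = 3) it was maintained or gained over the same days. All cows received the same synchronization of ovulation and the same fat-supplemented ration, and the groups were formed from what the cows did and not by a treatment. The study assigned 10 cows to the L group and 8 to the M/G group. Not every cow gave enough cumulus cells, and libraries with few exonic reads were dropped by the authors, so that 6 cows stand behind the values given here. For all libraries the title and the condition field of the sample record name opposite groups. The title was followed, and with the other field every difference would keep its size and change its sign.

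Cumulus cells are the somatic cells of the ovarian follicle that surround the oocyte and reach it through gap junctions. They pass metabolites and signals to the oocyte, respond to gonadotropins, and expand their matrix before ovulation. Because they are exposed to follicular fluid, whose lipids follow those of serum, they are a tissue in which an effect of body condition loss can be looked for. The study compared both groups for such differences. The question addressed here is how large a difference in the level of a well-measured transcript these 6 libraries can exclude. The tables name transcripts and no genes, and 0 entries of the gene table used here carried a transcript identifier of this kind. Gene functions, marker genes of cumulus or other follicle cells, and sequences were therefore not analysed, and the cell type is as labelled. In bulk RNA, a smaller number of cells holding a transcript and less of it per cell cannot be told apart.

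Library totals ran from 6397423 to 11879885 estimated counts. The 10 transcripts left out had made up 54.3% of L replicate 3 and 8.09 to 19.5% of the other 5 libraries. On the members fell 4045268, 4273176 and 3763917 counts in L replicates 1 to 3, and 7524254, 7416676 and 5918254 counts in M/G replicates 1 to 3. Every M/G library thus held more member counts than every L library, with a mean of 4027450 ± 255096 (SD, n = 3) for L libraries against 6953060 ± 897782 (SD, n = 3) for M/G libraries. The lowest of a member's 6 counts lay in an L library for 3989 members (84.7%), and in L replicate 3 for 2153 of them (45.7% of the members). The part of this difference in depth in the results was not tested beyond the scaling to library totals.

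The minimum of 50 counts bore unevenly on the libraries as well. Of the transcripts tested, 18981 missed it in at least 1 library, and 2396 missed it in exactly 1. Among the latter, 1011 missed it in L replicate 3 alone, against 52 to 538 in each of the other 5. The nearest members lay at the minimum itself, and the 152 with a lowest count of up to 5 above it had a median 95% interval half-width of 2.48 on the log2 scale. The nearest transcript outside had a lowest count of 49.9, and the 122 within 5 below had a median half-width of 2.54. The members were somewhat longer than the transcripts tested, with a median of 2439 against 2125 nucleotides, and 3049 of them (64.8%) also reached the minimum in all 6 oocyte libraries of the series.

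The libraries of a group did not lie closer to each other than to those of the other group. For each pair of libraries the distance was taken as the median over the members of the absolute log2 ratio of TMM-normalized CPM (counts scaled to the library's size). This distance averaged 0.66 over the 6 pairs within groups, a typical ratio of 1.58-fold, and 0.61 over the 9 pairs between groups, a typical ratio of 1.53-fold. The pairs within groups ranged from 0.44 to 0.82 and those between groups from 0.29 to 0.81. The closest pair was L replicate 2 with M/G replicate 3, at a typical ratio of 1.23-fold. For 5 of the 6 libraries the nearest library belonged to the other group, and M/G replicate 1, nearest to M/G replicate 2, was the exception.

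**Figure D1:**
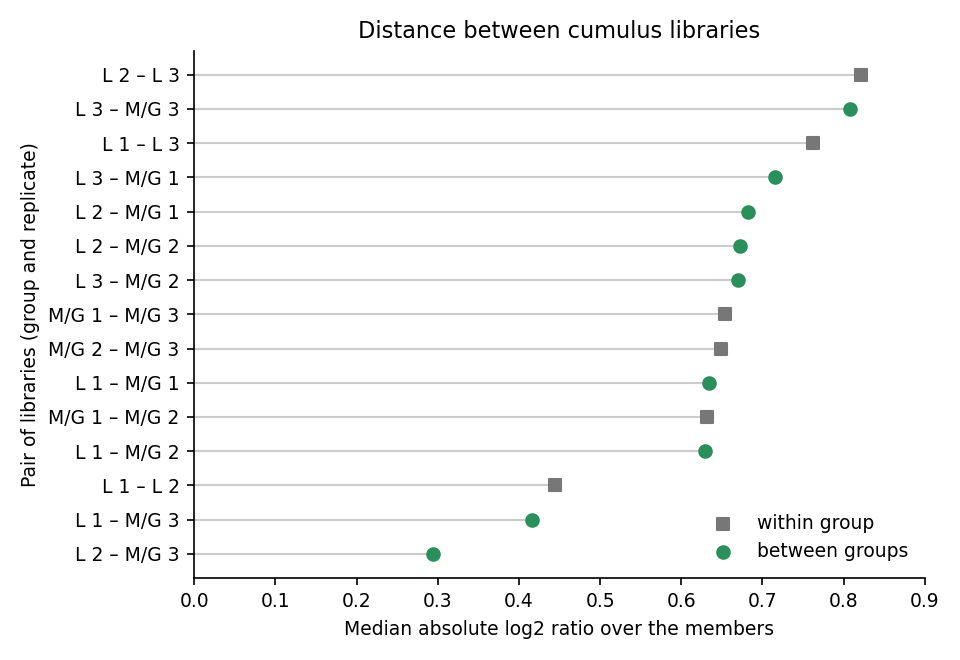
Distance between cumulus libraries. Each point is 1 of 15 pairs of libraries, with the median absolute log2 ratio over the 4708 well-measured transcripts on the x axis, squares for the 6 pairs within a group and circles for the 9 pairs between groups. The pairs of both kinds are mixed along the axis, and the closest pair, at 0.29, joins the groups.

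Pearson's r between log2 CPM values gave the same order. It is a correlation across transcripts, which are not independent replicates. It averaged 0.762 within groups and 0.787 between groups, with ranges of 0.664 to 0.869 and 0.663 to 0.937. The mean r of a library with the other 5 was lowest for L replicate 3, at 0.709, and lay between 0.764 and 0.806 for the others.

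In principal components of the members' log2 CPM, PC1 held 41.2% of the variance. Its scores were −20.9, −30.9 and 48.6 for L replicates 1 to 3 and 17.4, 17.5 and −31.7 for M/G replicates 1 to 3. Each group thus had libraries at both ends of PC1, and the group difference took 0.129% of its sum of squares. On PC2, with 22.7% of the variance, M/G replicate 1 lay at −47.4 and the other 5 libraries between 3.38 and 23.9, and the group difference took 31.3%.

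**Figure D2:**
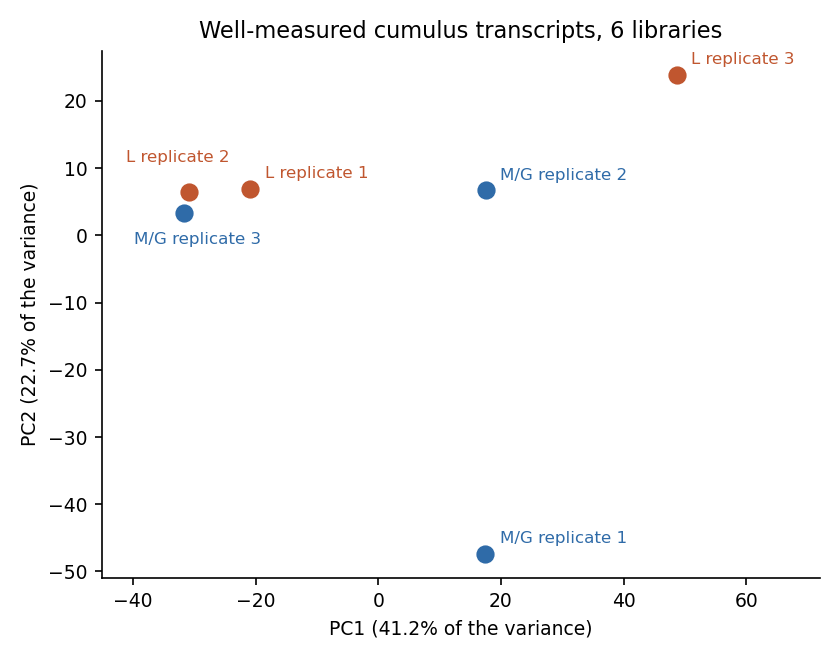
Principal components of the 6 cumulus libraries over the 4708 well-measured transcripts. Each point is a library, colored by group, with PC1 (41.2% of the variance) on the x axis and PC2 (22.7%) on the y axis. M/G replicate 3 lies beside L replicates 1 and 2, and L replicate 3 and M/G replicate 1 lie away from the other libraries.

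Over all members and all components, the difference between L and M/G took 15.2% of the sum of squares. There are 10 ways to divide the 6 libraries into 3 and 3, and 9 of them reached this share (exact permutation test, one-sided, p = 0.9). With so few libraries p cannot go below 0.1. When a single library was left out in turn, the share lay between 16.8 and 25.1%. From the degrees of freedom alone, a division into groups takes 20% with 6 libraries and 25% with 5.

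The spread within groups set the scale for every comparison. The pooled within-group SD of log2 CPM had a median of 0.635 over the members, which is a factor of 1.55, with an interquartile range of 0.445 to 0.867. Over the whole table tested the median was 2.48. An SD above 1, a factor of 2, was found for 745 members (15.8%). Both groups had similar medians, 0.582 in the L group and 0.572 in the M/G group, and the SD was lower in the M/G group for 2450 members and lower in the L group for 2258. Without L replicate 3 the median pooled SD was 0.547, and between L replicates 1 and 2 alone it was 0.314. A median SD from fewer libraries runs lower by itself, so these values and those of single groups are not directly comparable with 0.635.

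The extremes of this range, chosen after their values were seen, show what it means for single transcripts. The member with the smallest SD, ENSBTAT00000017968.5 (1953 nucleotides), had CPM of 112, 110 and 113 in L replicates 1 to 3 and 116, 115 and 116 in M/G replicates 1 to 3. Its 6 values are nearly equal, the L libraries lie just below the M/G libraries, and the SD was 0.017. The member with the largest SD, ENSBTAT00000071299.1 (5206 nucleotides), had CPM of 1224, 1025 and 41.7 in the L group and 1211, 17.8 and 623 in the M/G group. One library of each group lay far below its other libraries, and the SD was 3.02.

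Members shared with the oocytes offered a second reading of this spread, in single MII oocytes of the same study, prepared with another library kit. Over the 3049 shared transcripts the median pooled SD was 0.590 in cumulus and 0.669 in oocytes, and it was lower in cumulus for 1762. The order turned with the library that stood furthest apart in each cell type left out. Without oocyte M/G replicate 1 the oocyte median was 0.404, and without cumulus L replicate 3 the cumulus median was 0.503. These medians are a description, and the difference between the cell types was not tested.

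Differences between the group means were small beside this spread. The absolute difference of mean log2 CPM had a median of 0.33 over the members, a factor of 1.26, and was smaller than the transcript's own pooled SD for 3623 members (77.0%). In the whole table the share was 80.4%. The difference exceeded 1, a factor of 2, for 302 members (6.41%) and exceeded 2, a factor of 4, for 7. A single L library lay more than 2-fold from the M/G mean for many more members, 725 for L replicate 1, 672 for L replicate 2 and 1414 for L replicate 3 (30.0%).

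Fold changes and 95% intervals were taken from limma-voom, which weights each count by its expected precision, fitted over the whole table. The log2 fold change, L minus M/G, was positive for 2109 members and negative for 2599, with a median of −0.07. This median stood at −0.01 with library totals as the only scaling and at −0.04 with DESeq2 size factors. The absolute fold change had a median of 1.27-fold, or 0.34 on the log2 scale, with an interquartile range of 0.15 to 0.59 and a 95th percentile of 1.10. Fitted changes larger than 2-fold were found for 333 members (7.07%), against 57.2% of the whole table. The count was 717 without M/G replicate 3, 529 without L replicate 3 and 520 without L replicate 2.

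The intervals were several times wider than the fold changes. Their half-width had a median of 1.5 on the log2 scale, a factor of 2.83, with an interquartile range of 1.11 to 1.92, against a median of 4.89 over the whole table. The far end of the interval, which bounds the size of the difference in either direction, had a median of 1.89, a factor of 3.70. For half-widths of this size a 2-fold difference in a typical member could not be told from none. The interval lay within 1.5-fold of equality for 54 members, within 2-fold for 431 (9.15%), within 4-fold for 2634 (55.9%) and within 8-fold for 4278 (90.9%). In the whole table the shares within 2-fold and 4-fold were 1.82 and 11.1%, and every transcript inside these limits was a member, as the count minimum favors abundant transcripts.

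These bounds depend on the model that sets the width. EdgeR reports no interval, and one was derived from its fold change and F statistic. With these intervals the median half-width was 1.72, and 84 members (1.78%) lay within 2-fold, 2128 (45.2%) within 4-fold and 4141 (88.0%) within 8-fold. When limma-voom was fitted to the members alone, so that low transcripts no longer entered the estimate of the spread, the median half-width was 1.18, a factor of 2.27. The limit of 1.5-fold was met by 0 members in edgeR and 0 in the fit of the members alone, and by 14 to 37 in the whole-table fit with 1 library left out. Other settings of the whole-table fit ran from 36 with a block for replicate number to 100 with the number of detected transcripts as covariate. In the fit of the members alone 258 (5.48%) lay within 2-fold, 3793 (80.6%) within 4-fold and 4625 (98.2%) within 8-fold. The number within 2-fold was lower with any 1 library left out, which also takes away a replicate. In the fit of the members alone it was 8, 9 and 204 without L replicate 1, 2 or 3. Without M/G replicate 1, 2 or 3 it was 44, 46 and 36. In the whole-table fit it fell to 204 without L replicate 1 and 215 without L replicate 2. With the number of detected transcripts as covariate it rose, to 614 in the whole-table fit and 477 in the fit of the members alone. A block for replicate number lowered it to 168 and 0 in these fits.

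**Figure D3:**
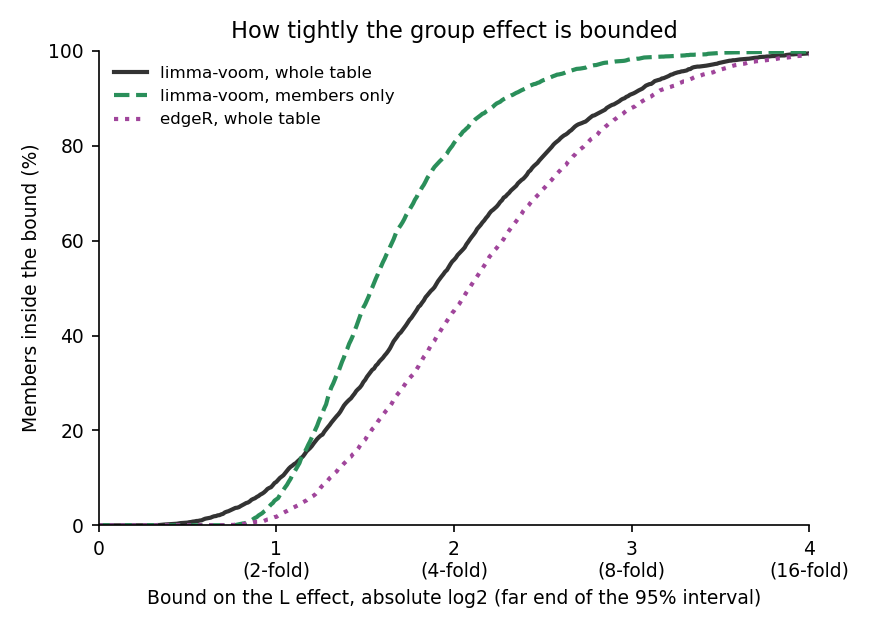
Share of the 4708 well-measured transcripts whose 95% interval lies inside a bound. The x axis is the bound on the absolute log2 difference between L and M/G, the y axis the percentage of members, and the lines stand for limma-voom fitted to the whole table, limma-voom fitted to the members only and edgeR fitted to the whole table. At the 4-fold bound the lines stand at 55.9, 80.6 and 45.2%.

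No well-measured transcript differed between the groups past the threshold. With edgeR's quasi-likelihood test and Benjamini-Hochberg adjustment over the 23689 transcripts, 0 members had an adjusted p-value under 0.05 and the smallest was 1. The background was 0% of the whole table, where the smallest adjusted p-value in edgeR was 0.410. At an unadjusted edgeR p-value under 0.05 there were 15 members (0.319%), against 1.55% of the whole table. Of these, 6 were higher in the L group (0.127%, background 0.794%) and 9 lower (0.191%, background 0.76%). DESeq2 gave 0 members an adjusted p-value under 0.05, against 0.785% of the whole table, with 9 members left without an adjusted value and 9 members (0.191%) at an unadjusted p-value under 0.05, against 4.05% of the whole table. The limma-voom test gave 0 members an adjusted p-value under 0.05, against 0.038% of the whole table, and its smallest adjusted p-value among the members was 0.102. Its unadjusted 95% interval lay to one side of 0 for 72 members (1.53%, background 3.52%), 19 higher in the L group (background 2.11%) and 53 lower (background 1.41%). Fitted to the members alone, limma-voom gave 60 higher and 32 lower. In the whole-table fit the split was 51 and 31 without L replicate 3 (1.08 and 0.658%, background 2.87 and 0.891%). It was 21 and 14 without L replicate 2 (0.446 and 0.297%, background 1.84 and 1.51%), and 54 and 168 without M/G replicate 3 (1.15 and 3.57%, background 6.80 and 2.61%). Its direction therefore rests on the fit and on single libraries.

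The 3 values of each group did not overlap for 293 members (6.22%), against 4.64% of the whole table. All 3 L libraries were above all 3 M/G libraries for 104 members (2.21%, background 2.26%) and below them for 189 (4.01%, background 2.39%). Under DESeq2 size factors 138 were higher (2.93%, background 2.57%) and 141 lower (2.99%, background 2.14%). Under library totals alone 136 were higher (2.89%, background 2.55%) and 138 lower (2.93%, background 2.03%). The excess of lower over higher members was thus 85 under TMM and 3 and 2 under these scalings, while the share of lower members was above that of the whole table under all 3. With 3 and 3 libraries in random order, 1 in 20 transcripts would lie wholly lower in the L group and 1 in 20 wholly higher. None of the shares above in a single direction reaches this. With any 1 library left out fewer values have to separate, so the number without overlap rises by the count of libraries alone. It was then between 601 and 954 (12.8 to 20.3%), and the whole table rose likewise, to between 10.1 and 16.02%.

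The difference varied with the level of the transcript more than with its length. Members were divided into 4 level classes of 1177 by mean log2 CPM, with limits at 5.17, 6.01 and 7.03 within a range of 3.38 to 14.19. From the lowest to the highest class the median log2 fold change was 0.12, −0.06, −0.09 and −0.14. It was above 0 in the lowest class (0.02 to 0.28) and below 0 in the highest (−0.21 to −0.05) in each of the 28 settings for which it was computed, in which the members of a class could differ with the count minimum. The median pooled SD of single members in the same classes was 0.683, 0.693, 0.604 and 0.522. The settings are drawn from the same libraries and are not independent of each other. Depth differs between the groups, and a minimum in every library leaves out low transcripts more readily where they are low in the L group. The parts of depth and of this selection in the course were not tested.

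**Figure D4:**
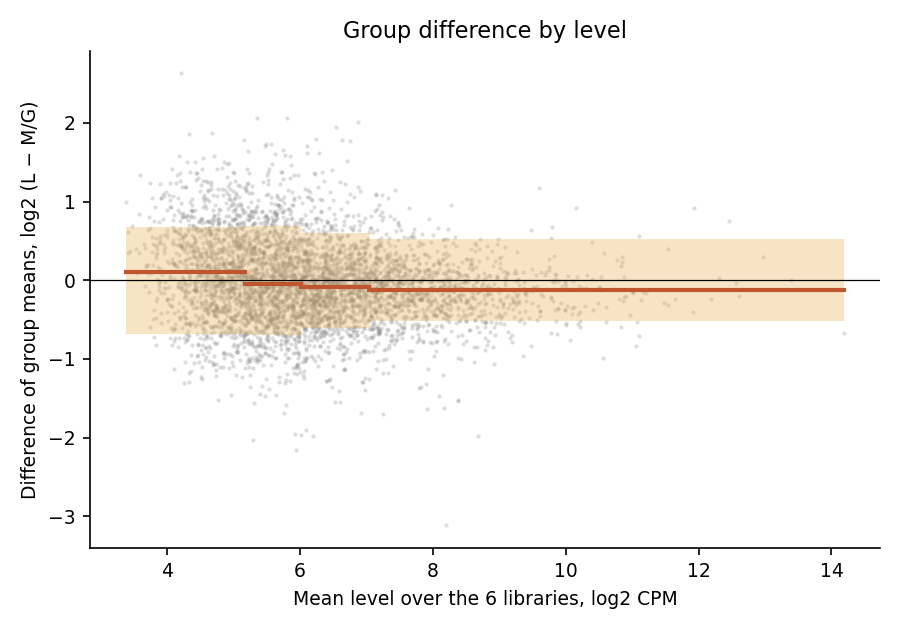
Difference of group means against level for the 4708 well-measured transcripts. Each point is a transcript, with its mean log2 CPM over 6 libraries on the x axis and the L minus M/G difference on the y axis. Each line is the median difference in 1 of 4 equal classes of members by level, and the band reaches 1 median pooled within-group SD to either side of 0. The median line lies above 0 in the lowest class and below 0 in the other 3, and the band, which is the spread of single transcripts, has a half-width of 0.683 in the lowest class and 0.522 in the highest.

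The bounds tightened with level. Over the same 4 classes the median half-width fell from 2.17 to 1.66, 1.26 and 0.86 on the log2 scale. The interval lay within 2-fold for 0, 0, 10 and 421 members and within 4-fold for 49, 532, 964 and 1089. In the fit of the members alone the half-width ran from 1.26 in the lowest class to 0.97 in the highest, with 0, 0, 25 and 233 members within 2-fold. Both fits thus placed nearly all tightly bounded members in the highest class, at mean counts with a median of 1879 per library.

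The values varied less with length. In 4 classes of the members by length, with limits at 1548, 2439 and 3676 nucleotides, the median half-width was 1.55, 1.55, 1.53 and 1.36, and the median pooled SD was 0.693, 0.639, 0.611 and 0.590. The median log2 fold change stayed between −0.08 and −0.05 in all 4, and 85, 96, 100 and 150 members were bounded within 2-fold.

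Single transcripts were named by their test or interval, the pair with the smallest edgeR p-value in each direction first. ENSBTAT00000020168.4 (1534 nucleotides) had 1374, 1077 and 486 counts in L replicates 1 to 3 and 4362, 6829 and 3083 counts in M/G replicates 1 to 3. Scaled to CPM these were 244, 174 and 104 against 454, 734 and 385, so that every M/G library was above every L library. The log2 fold change was −1.60 with a 95% interval of −2.60 to −0.60, and the edgeR p-value was 0.00920 before and 1 after adjustment. On the linear scale the interval runs from 0.165 to 0.660 of the M/G level.

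ENSBTAT00000038370.4 (1554 nucleotides) had CPM of 1120, 1290 and 859 in the L group and 2220, 1580 and 2760 in the M/G group. The groups again did not overlap, although L replicate 2 and M/G replicate 2 lay close together. The log2 fold change was −0.89 (−1.65 to −0.14), with an edgeR p-value of 0.0133 and an adjusted p of 1.

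In the other direction, ENSBTAT00000023078.5 (1612 nucleotides) had 510, 424 and 1113 counts in the L group and 137, 304 and 346 in the M/G group. The CPM were 90.7, 68.6 and 239 against 14.4, 32.8 and 43.3, with L replicate 3 far above the rest and no overlap. The log2 fold change was 2.02 (0.31 to 3.72), with an edgeR p-value of 0.0231 and an adjusted p of 1.

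ENSBTAT00000068847.1 (3744 nucleotides) had 286, 97 and 559 counts in the L group and 55, 53 and 94 in the M/G group, which puts it near the count minimum. Its CPM were 50.9, 15.8 and 120 against 5.86, 5.84 and 11.9, and L replicate 2 and M/G replicate 3 came close to each other. This was the largest positive difference of means among the members. The log2 fold change was 2.54 with an interval of −0.53 to 5.62, which spans 0, while the fit of the members alone gave 2.70 with 1.17 to 4.23. Without L replicate 2 the whole-table value was 3.39, and without L replicate 3 it was 1.96. Its edgeR p-value was 0.0253, and 1 after adjustment.

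The largest difference of means in either direction, chosen after its values were seen, belonged to a transcript of 3384 nucleotides. Its CPM were 9.01, 382 and 285 in the L group and 1707, 1080 and 346 in the M/G group. L replicate 2 exceeded M/G replicate 3, so the groups overlapped. The log2 fold change was −3.28 with an interval of −7.0 to 0.45, the pooled SD was 2.29, and the value of L replicate 1 rests on 50 counts. EdgeR gave −2.21, smaller in size than its 3.01 for ENSBTAT00000068847.1.

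The pair of members with the narrowest intervals were abundant transcripts. ENSBTAT00000063682.2 (1447 nucleotides) had CPM of 2100, 1710 and 2090 in the L group and 2150, 2300 and 2030 in the M/G group. The groups overlapped, with a pooled SD of 0.134. The whole-table fit gave a log2 fold change of −0.18 (−0.35 to −0.01), and the fit of the members alone −0.08 (−0.78 to 0.62). Without L replicate 2 these values were −0.05 and 0.01.

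ENSBTAT00000042718.3 (8129 nucleotides) had CPM of 10700, 14600 and 7940 in the L group and 8120, 14700 and 10300 in the M/G group. Both groups cover the same range, and the difference of their mean log2 CPM was 0.0038. The whole-table limma-voom fit nevertheless gave 0.45 (0.28 to 0.61), while edgeR gave 0.0045 with a half-width of 0.66 and the fit of the members alone gave 0.06 (−0.77 to 0.89). Its narrow interval is therefore not a bound to rely on.

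**Figure D5:**
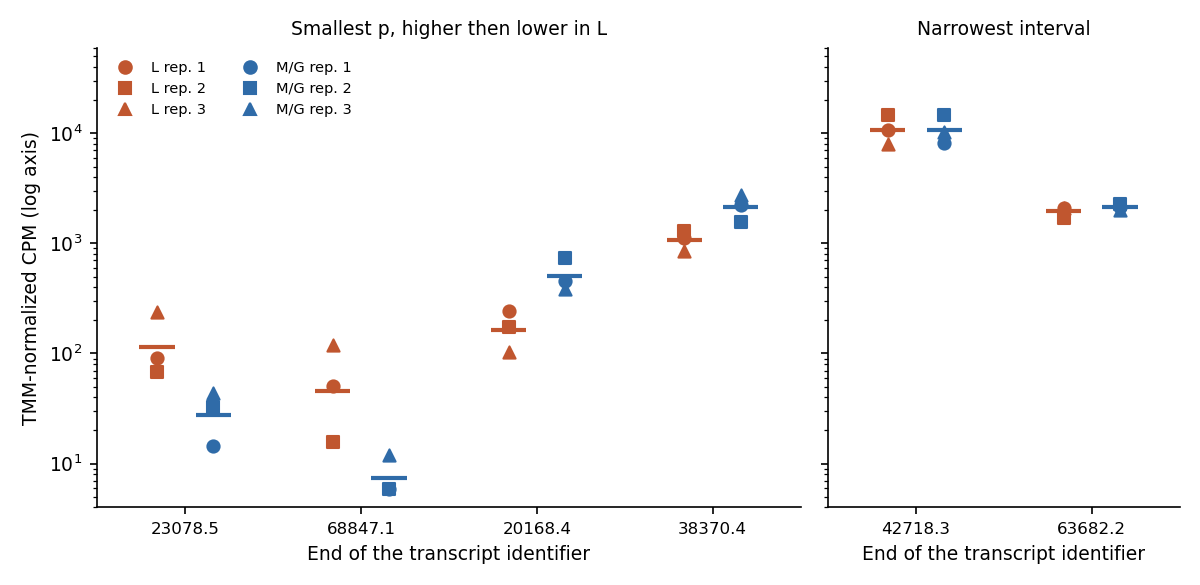
Levels of named transcripts in the 6 cumulus libraries. The y axis is TMM-normalized CPM on a log axis, the x axis gives the end of each identifier, colors mark the groups, symbols the replicates, and bars the group means of log2 CPM. The 2 higher and 2 lower transcripts with the smallest edgeR p-values separate by group without overlap, and the 2 with the narrowest intervals overlap.

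The widest interval belonged to the most abundant member. ENSBTAT00000044397.3 (855 nucleotides) had CPM of 13900, 8340 and 28000 in the L group and 31300, 28300 and 14600 in the M/G group, and the groups overlapped. The whole-table limma-voom fit gave a log2 fold change of −0.02 (−8.71 to 8.67). The half-width was 0.94 around −0.56 in edgeR, and the fit of the members alone gave −0.61 (−1.68 to 0.47).

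For such abundant transcripts the whole-table weights were uneven. The largest ratio between the weights of a member's 6 libraries was 3832 in the whole-table fit and 1.91 in the fit of the members alone. The whole-table fold change lay more than 0.5 on the log2 scale from the plain difference of means for 6 members, all in the highest level class, and for 0 in the fit of the members alone. In edgeR's whole-table fit the same gap was found for 127 members, 35 of them in the highest level class. In the highest level class 421 members lay within 2-fold in the whole-table fit and 233 in the fit of the members alone.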

How the data were processed

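Cumulus cells were sequenced by the authors after library preparation with the NuGEN Universal RNA-Seq with NuQuant kit, and libraries of 6 cows were kept. Reads were trimmed with fastp 0.20.0 (Phred 20, minimum length 20, first 3 bases removed) and quantified with Kallisto 0.44.0 on Ensembl bovine cDNA, and libraries with few exonic reads were excluded. The deposited tables, 1 per library, hold estimated counts, not normalized, and TPM values, which the authors' Kallisto run scaled for effective length and library total. The TPM values entered no test here. Kallisto divides reads among similar transcripts, so values of single isoforms are less certain than those of genes.

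Groups and replicate numbers were taken from the titles. The 10 transcripts with the most counts in L replicate 3 were removed, estimated counts were rounded to whole numbers, and transcripts with FPKM over 1 (computed from the counts) in at least 1 of the 6 libraries were kept. The 23689 transcripts were normalized by TMM and fitted with edgeR 4.0.16 (quasi-likelihood F test) for calls and limma 3.58.1 (voom) for fold changes and 95% intervals, in R 4.3.3, with no covariate. P-values were adjusted by Benjamini-Hochberg over the whole table. DESeq2 1.42.0, the tool of the study, was an alternative. The half-width given for edgeR is a t quantile times the absolute log2 fold change over the square root of F. Log2 CPM used a prior count of 1. The pooled SD was taken within groups. Transcripts named are the 2 higher and 2 lower members with the smallest edgeR p, the 2 narrowest and the 1 widest interval. The scripts were tested on simulated data.

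The members, the lists and the tests were chosen with earlier results of these data known. Library totals were 6397423 to 11879885 counts. The intervals cover the spread between these 3 and 3 libraries, in which cow, library preparation and counting error are not told apart. Alternatives covered the test, scaling, count minimum, features fitted, covariate, weights, replicate block and each library left out. Replicate numbers are shared by different cows of both groups. Planned lists of marker genes and pathways were not used here, as the tables hold no gene names.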

Additional observations from a re-analysis of the deposited data

Results flagged for a closer look

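The share of a library's counts on the well-measured transcripts was 35.8% in L replicate 3 and 62.4 to 67.1% in the other 5 cumulus libraries. It was looked at again because its gap to the nearest library was 0.852 of the whole range. The low share goes with the 10 transcripts left out, which were chosen as the highest of this same library, so it is a description and no test of the library. For 3 other measures of the same library, its mean r with the others, its median deviation from them and its number of lowest counts, the gap was 0.566, 0.488 and 0.563 of the range, which did not reach the limit for a library that stands apart. These 10 transcripts held 54.3% of the counts of this library and 8.09 to 19.5% of those of the other 5, so its composition differed from theirs. Of the counts that were kept, 78.4% fell on the members in L replicate 3 and 72.5 to 77.5% in the others.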

How the results depend on the processing

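The count of called members was 0 in each of the 28 settings for which it was computed, the reported one included. Directions that were never past a threshold did turn, among them the median log2 fold change of the members (−0.07 as reported, 0.01 in the fit of the members only with a covariate), the split of intervals to one side of 0 and the fold changes of the 2 transcripts named last in this paragraph and of ENSBTAT00000063682.2. Members at an unadjusted p under 0.05 (15) numbered 9 with DESeq2 (0.191%, background 4.05%) and 72 with limma-voom (1.53%, background 3.52%). With limma-voom and sample quality weights they numbered 134, with 0.743% higher and 2.10% lower in the L group (background 2.78 and 1.90%). There were 91 with edgeR fitted to the members only, a fit without other transcripts as background. In edgeR's whole-table fit (background 1.55%) they numbered 9 of 2357 at a minimum of 200 counts. In the same fit they numbered 287 at a mean count of 50 in place of 50 in each library. This last rule took in 12856 transcripts and gave a median half-width of 3.85, a median SD of 2.11, a median absolute log2 fold change of 0.87 and 774 without overlap (6.02% of its transcripts), and the minimum of 200 gave 139 (5.90%), against 4.64% of the whole table. Members bounded within 2-fold (431) numbered 84 in edgeR, 258 in the fit of the members only, 614 with the covariate of detected transcripts and 505 with sample quality weights. Leaving out 1 library gave 6 to 45 members at an unadjusted p, for which the share of the whole table was not computed. It gave 204 to 376 within 2-fold and 601 to 954 without overlap (12.8 to 20.3%, background 10.1 to 16.02%). The lowest values of the first 2 came without M/G replicate 1 or 2 and without L replicate 1, and the highest of the first and last without M/G replicate 3. Without a library the fold change of ENSBTAT00000042718.3 ran from −0.19 to 0.37 and that of ENSBTAT00000044397.3 from −1.39 to 0.23.

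Combinations with the fit of the members only were added after seeing the data, and in them no other transcripts give a background share. With L replicate 1, 2 or 3 left out they gave 87, 126 and 131 members at an unadjusted p and 8, 9 and 204 within 2-fold, and with M/G replicate 1, 2 or 3 left out 67, 73 and 213 at an unadjusted p and 44, 46 and 36 within 2-fold. The number at an unadjusted p was 118 with the number of detected transcripts as covariate and 42 at a minimum of 200 counts. The median half-width was 0.96 at that minimum. The covariate put 477 within 2-fold, and edgeR's intervals put 230 there.

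The replicate block left 6 members at an unadjusted p, a median half-width of 2.31, 168 within 2-fold and 1242 within 4-fold (2634 without it), and in the fit of the members only it left 55 at an unadjusted p and 0 within 2-fold. The numbers do not pair the libraries, as they belong to different cows and deviations of same-numbered libraries had a mean correlation of −0.281, against 0.141 for different numbers.

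With 1 library per cow, the spread between cows and that of library preparation cannot be told apart. The width of the bounds also depends on the model, since in the lowest level class, at a median SD of 0.683, the median half-width was 2.17 in the whole-table fit and 1.26 in the fit of the members only.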
